A study of Drosophila melanogaster with 6 samples.

Results

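Cytochromes P450 are haem enzymes that insert an oxygen atom into their substrates, with electrons handed on by a reductase or, in mitochondria, by a ferredoxin. In insects they act on plant toxins and insecticides and on the fly's own hormones, fatty acids, hydrocarbons and odorants. The superfamily is sorted by sequence into numbered families: CYP4, CYP6 and CYP9 enzymes sit in the endoplasmic reticulum, and CYP12 enzymes sit in mitochondria.

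The P450 probe sets were taken as all those annotated to a single gene whose symbol is Cyp followed by a digit. The rule matched 84 of the 18769 probe sets that are not controls. Cyp1 and Cyp40, which it also matched, encode cyclophilins, which are protein-folding enzymes and no P450s, and they were set aside. Cyp1 averaged an intensity of 3400 ± 33.0 in deletion heads and 3623 ± 226 in wild-type heads (SD, n = 3 arrays each), and Cyp40 averaged 110 ± 7.69 in deletion heads and 90.2 ± 8.07 in wild-type heads, with neither past the test. The remaining 82 probe sets stood for 80 genes, out of 11982 genes with a probe set of their own. Of the 80 genes, 21 were in CYP4, 23 in CYP6, 5 in CYP9, 6 in CYP12 with 7 probe sets, and 25 in other families with 26 probe sets. One gene of the superfamily was not analysed here, and 2 probe sets shared between genes were not counted.

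RNA from whole heads of adult male Drosophila melanogaster was hybridised to 6 Affymetrix arrays. The deletion males (3 arrays) carried an X chromosome marked cm Sxlfp7BO ct, on which the whole Sxl gene is missing. Sxl, Sex-lethal, is the switch gene of female development, and the comparison asked what its loss does to transcripts of the male head. The wild-type males (3 arrays) were their Oregon-R brothers from a single-pair cross, after the mutant chromosome had been backcrossed repeatedly to Oregon-R. Both groups were 2 to 5 days old and were kept at 25 °C. Deletion males also carried mutant cm (an eye colour gene) and ct (a wing gene) and the DNA around them, so the loss of Sxl and the effect of that stretch of X chromosome cannot be told apart. The labels call the samples of a genotype biological replicates.

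The 3 Sxl probe sets averaged 4.65 ± 0.646, 6.19 ± 0.0617 and 5.10 ± 1.04 in deletion heads (SD, n = 3 arrays), against 97.8 ± 7.76, 155 ± 9.54 and 190 ± 26.6 in wild-type heads. Median intensities of the arrays lay between 14.3 and 14.8, and no array stood apart in its correlations with the others (0.994 to 0.998 on the log2 scale). In the limma fit of all 11261 tested probe sets, 2.60% were called at an adjusted p under 0.05, 1.23% higher and 1.38% lower in deletion heads. Arrays with the same replicate number deviated together, and a fit with the number as a block called 7.40%, 3.42% higher and 3.98% lower. What a number stands for is not labelled, and the block was chosen from these same values, so its adjusted p may be too favourable. The words rose and fell are kept below for calls made without the block.

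Most of the P450 probe sets lay above the low end of the array's intensities. Of the 82 probe sets, 71 (86.6%) passed the filter on low intensity, a mean log2 value at or above the 40th percentile of all probe sets, which corresponds to an intensity of 8.35. Of the other probe sets on the array 59.9% passed. The filter is a rank among probe sets and no detection call, since no background was measured. Cyp6a16, Cyp311a1 and Cyp49a1 passed with means of only 8.62, 9.01 and 9.04. Among the P450 probe sets 38 (46.3%) averaged above an intensity of 100, against 28.1% of all probe sets, and 8 averaged above 1000. Mean intensities over the 6 arrays ran from 4.95 for Cyp316a1 to 4136 for Cyp313a1. Probe sets differ in how strongly they respond to the same amount of RNA, so these figures describe signal and do not rank genes by transcript number.

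Probe sets of the named families passed the filter more often than the rest. In CYP4, 20 of 21 probe sets passed the filter, in CYP6 22 of 23, in CYP9 5 of 5 and in CYP12 7 of 7, but in the other families 17 of 26. Median intensity over the probe sets of a family was 50.7 in deletion heads and 57.1 in wild-type heads for CYP4, and 103 in deletion heads and 116 in wild-type heads for CYP6. For CYP9 it was 197 in deletion heads and 172 in wild-type heads, and for CYP12 it was 144 in deletion heads and 146 in wild-type heads. For the others it was 18.1 in deletion heads and 17.5 in wild-type heads. The CYP9 median was the value of a single gene, Cyp9b1, in both genotypes. The median log2 change of the 5 CYP9 probe sets, deletion over wild type, was -0.01, with 3 of them negative. The 11 probe sets under the filter, with means between 4.95 and 8.33, were those of Cyp4ad1, Cyp6a18, Cyp303a1, Cyp304a1, Cyp310a1, Cyp312a1, Cyp316a1, Cyp313a2, Cyp313a3, Cyp313a5 and Cyp313b1. Signal ranged widely within the CYP313 family: Cyp313a1 averaged 4047 ± 95.0 in deletion heads and 4224 ± 97.7 in wild-type heads, and 4 of its 6 probe sets were under the filter. Cyp303a1, known for its part in bristle development, averaged 5.19 ± 0.580 in deletion heads and 6.07 ± 0.278 in wild-type heads and was not tested.

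**Figure D1:**
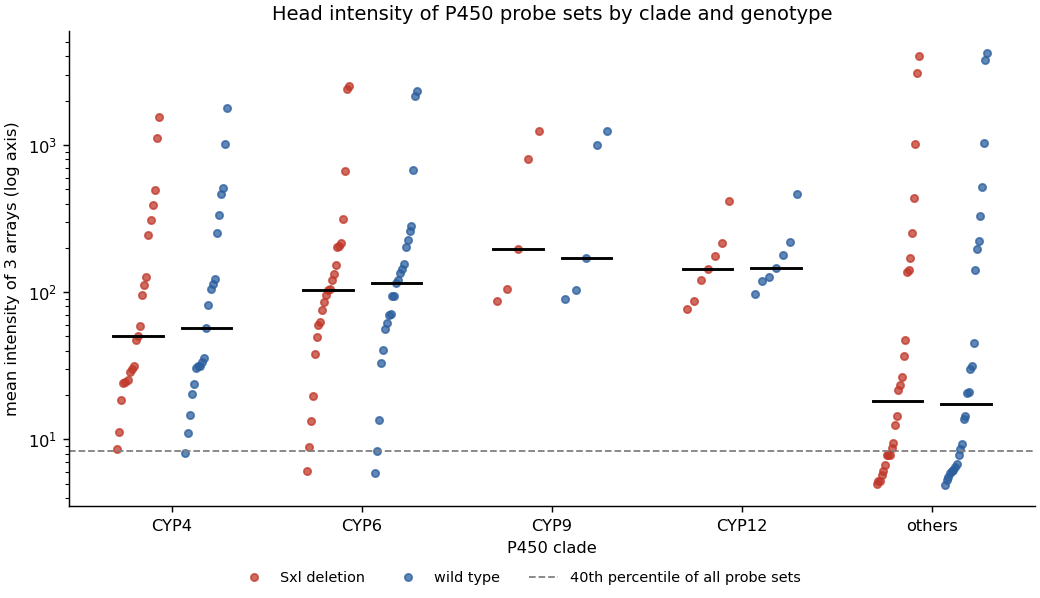
Mean intensity (log axis) of each of the 82 P450 probe sets in 3 Sxl-deletion arrays (red) and 3 wild-type arrays (blue), by family group, with a bar at the median of the group. The dashed line marks the 40th percentile of all probe sets, and CYP9 and CYP12 lie wholly above it, while 9 of the 26 probe sets of the other families do not.

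Few P450 transcripts were called different between the genotypes without the block, and more with it. Without the block, 2 of the 71 tested probe sets were called (2.82%, against 2.60% of all tested), Cyp4ae1 higher and Cyp4s3 lower, so the P450 share was near that of the array as a whole. With the block, 14 were called (19.7%, against 7.40%), of which 3 were higher (4.23%, against 3.42%) and 11 were lower (15.5%, against 3.98%). The log2 change, deletion over wild type, was negative for 45 of the 71 and positive for 26, and with array weights negative for 42 and positive for 29. Its median was -0.04, against 0.00 over all tested probe sets, and its range was -0.79 to 0.63. The 3 deletion and 3 wild-type values did not overlap for 17 probe sets (23.9%, against 24.0% of all tested). Of these, 4 were higher in deletion heads (5.63%, against 12.1%) and 13 were lower (18.3%, against 12%). An unadjusted limma p under 0.05 was found for 19 of the 71, against 1985 of 11261. Since the samples are whole heads, fewer cells of a type and less RNA per cell cannot be told apart.

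**Figure D2:**
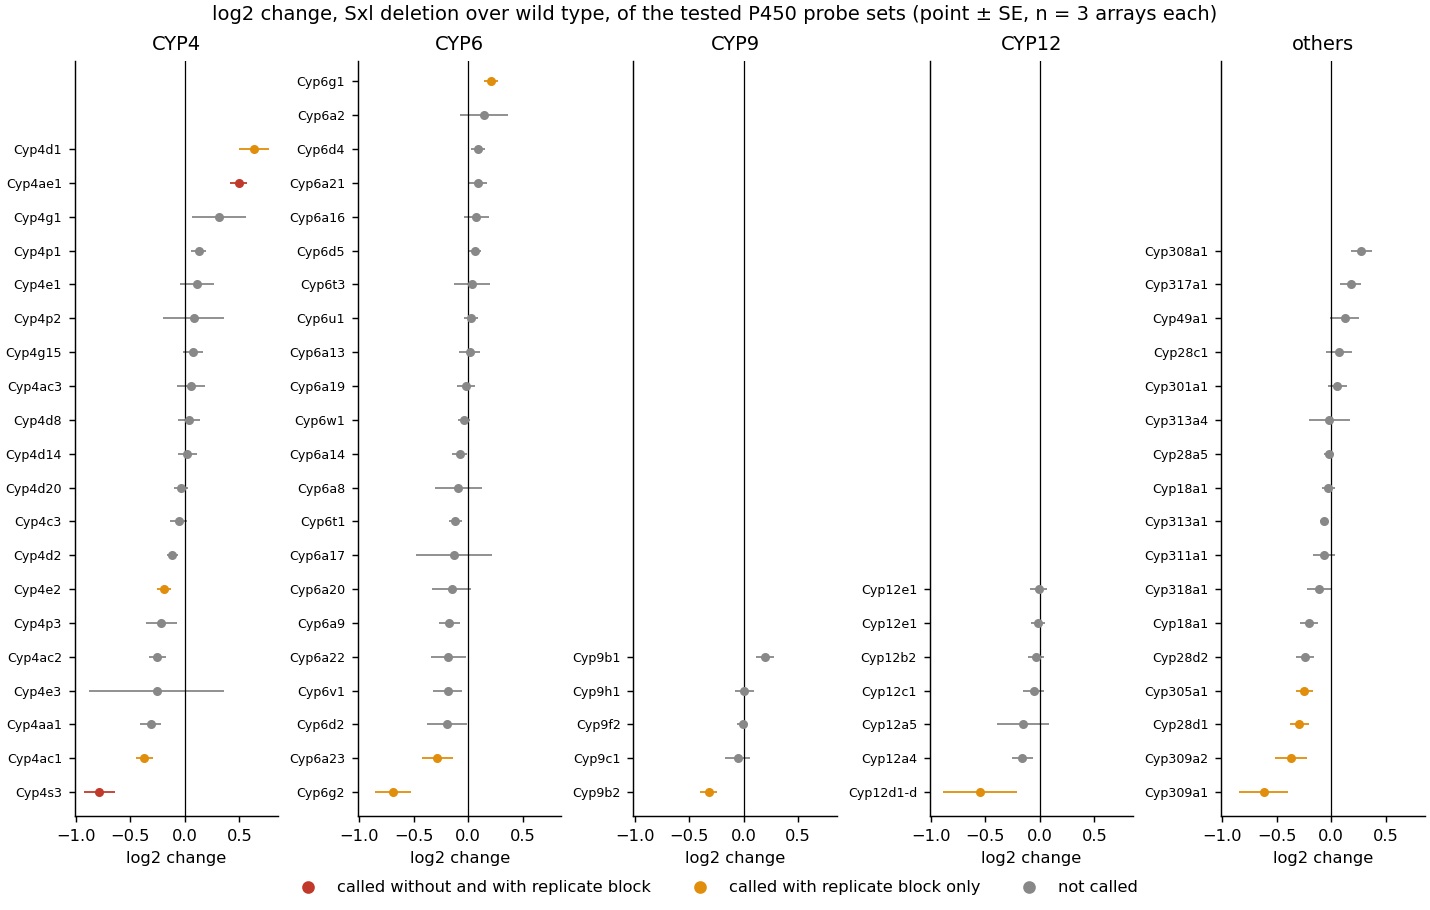
log2 change, deletion over wild type, of the 71 tested P450 probe sets by family group (point, with a bar of 1 standard error from the limma fit without the block, 3 arrays each). Cyp4ae1 and Cyp4s3 (red) were called without and with the replicate block, 12 others (orange) with it only, and all 7 CYP12 points lie left of 0 in this fit, 5 of them with array weights.

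CYP4, which in insects includes enzymes of fatty acid and hydrocarbon oxidation, held both calls made without the block. Of its 20 tested probe sets 10 had positive and 10 negative changes, with a median of -0.01. The groups did not overlap for 40% of the 20, against 24.0% of all tested. An unadjusted limma p under 0.05 was found for 8, against 1985 of 11261. With the block 5 were called (25%, against 7.40%). Cyp4ae1 had intensities of 52.5, 51.4 and 48.2 in deletion heads, against 35.5, 34.3 and 37.3 in wild-type heads. Every deletion value lay above every wild-type value. Cyp4ae1 rose 1.41-fold, a log2 change of 0.49 ± 0.08 (SE) with a limma adjusted p of 0.0197 without the block and 0.0180 with it. The direction held whichever array was left out, but the call was lost without deletion replicate 1 (limma adjusted p of 0.0780), 2 (0.0994) or 3 (0.0652) or wild-type replicate 2 (0.0725).

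Cyp4s3 had intensities of 51.2, 39.5 and 50.8 in deletion heads, against 88.1, 68.0 and 90.3 in wild-type heads. The groups did not overlap, and replicate 2 was the lowest of both. Cyp4s3 fell to 0.580 of its wild-type intensity, a log2 change of -0.79 ± 0.14 with a limma adjusted p of 0.0334, or 0.0018 with the block. Its direction held under every array left out. The call was lost without deletion replicate 1 (0.0766), 2 (0.114) or 3 (0.105) or wild-type replicate 3 (0.0931), and in the limma fit without the intensity trend (0.0604).

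A further 3 CYP4 genes were called with the block only. Cyp4d1 had intensities of 31.5, 28.6 and 34.6 in deletion heads, against 24.7, 18.1 and 17.7 in wild-type heads, a log2 change of 0.63 ± 0.14 with a limma adjusted p of 0.0605, and of 0.0278 with the block. Its groups did not overlap. Cyp4ac1 had 386, 382 and 408 in deletion heads, against 572, 470 and 483 in wild-type heads, a log2 change of -0.37 ± 0.08 with a limma adjusted p of 0.0544, and of 0.0222 with the block. Cyp4e2 had 1597, 1503 and 1579 in deletion heads, against 1942, 1642 and 1779 in wild-type heads, a log2 change of -0.19 ± 0.06 with a limma adjusted p of 0.169, and of 0.0416 with the block. In both genes every deletion value was below every wild-type value. For Cyp4e2 the highest deletion and the lowest wild-type array were close together, and the call with the block was lost without both arrays numbered 1 (limma adjusted p of 0.0730).

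The other CYP4 genes were not called either way. Cyp4g1, which makes cuticular hydrocarbons in the oenocytes of the abdomen, had intensities of 24.8, 14.6 and 15.8 in deletion heads, against 19.9, 11.1 and 12.9 in wild-type heads. The groups overlapped, and replicate 1 was the highest of both (log2 change of 0.31, limma adjusted p of 0.574, or 0.0850 with the block). Its relative Cyp4g15 averaged 490 ± 38.8 in deletion heads and 466 ± 49.7 in wild-type heads. Cyp4p1 averaged 1114 ± 37.3 in deletion heads and 1022 ± 90.6 in wild-type heads, with a limma adjusted p of 0.385.

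CYP6, the family best known for insecticide metabolism, had 22 tested probe sets, 9 with positive and 13 with negative changes and a median of -0.06. None was called without the block and 3 were called with it (13.6%, against 7.40% of all tested). An unadjusted limma p under 0.05 was found for 2 of the 22, against 1985 of 11261. Cyp6g1, whose overexpression gives resistance to DDT and neonicotinoids, had intensities of 2588, 2352 and 2570 in deletion heads, against 2360, 2065 and 2075 in wild-type heads. The lowest deletion value was just under the highest wild-type value, so the groups overlapped. The log2 change was 0.21 ± 0.06, with a limma adjusted p of 0.143, and of 0.0349 with the block.

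Cyp6g2, which lies beside Cyp6g1 and can metabolise insecticides when overexpressed, differed the other way. It had intensities of 21.0, 18.3 and 20.0 in deletion heads, against 42.9, 28.8 and 27.3 in wild-type heads, without overlap. The log2 change was -0.69 ± 0.16, with a limma adjusted p of 0.0759, and of 0.0212 with the block. Cyp6a23 had 241, 183 and 221 in deletion heads, against 303.9, 216 and 266 in wild-type heads. Its groups overlapped, but each deletion array was below the wild-type array of the same number, and the log2 change of -0.28 ± 0.14 had a limma adjusted p of 0.353, and of 0.0213 with the block.

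Other CYP6 genes of known role were not called in either fit. Cyp6a2, which metabolises DDT, averaged 312.8 ± 78.3 in deletion heads and 281 ± 62.2 in wild-type heads. Cyp6a8, which is induced by foreign chemicals, averaged 85.7 ± 11.2 in deletion heads and 93.8 ± 27.8 in wild-type heads. Cyp6a20, known for its effect on male aggression, averaged 120 ± 21.3 in deletion heads and 135 ± 32.1 in wild-type heads, a log2 change of -0.15 ± 0.18 with a limma adjusted p of 0.745. In each of these the groups overlapped. Cyp6d5 averaged 2406 ± 118 in deletion heads and 2310 ± 131 in wild-type heads, and Cyp6w1 averaged 661 ± 25.3 in deletion heads and 679 ± 41.6 in wild-type heads.

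Of the 5 CYP9 genes, none was called by limma without the block, and 2 had an unadjusted p under 0.05 (against 1985 of 11261 of all tested). Only Cyp9b2 was called with the block (20% of the family, against 7.40%). It had intensities of 831, 788 and 778 in deletion heads, against 1128, 908 and 969 in wild-type heads, without overlap, and a log2 change of -0.32 ± 0.08 with a limma adjusted p of 0.0809, and of 0.0159 with the block. Its neighbour Cyp9b1 had 211, 179 and 200 in deletion heads, against 187, 160 and 167 in wild-type heads. These values overlapped, and the log2 change of 0.20 ± 0.08 had a limma adjusted p of 0.282. Cyp9f2 averaged 1242 ± 47.5 in deletion heads and 1249 ± 58.4 in wild-type heads, and Cyp9c1 averaged 86.7 ± 11.3 in deletion heads and 89.99 ± 9.54 in wild-type heads.

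All 7 probe sets of the mitochondrial CYP12 genes had negative changes, with a median of -0.06, a count that array weights turned into 5 negative and 2 positive. In none were the groups separate, and none was called by limma without the block. For 0 of the 7 the unadjusted limma p was under 0.05, against 1985 of 11261 of all tested. Cyp12d1-d, an enzyme of insecticide metabolism that foreign chemicals induce, had intensities of 85.3, 90.2 and 53.5 in deletion heads, against 118, 172 and 64.9 in wild-type heads. The groups overlapped and the arrays varied widely within each genotype, with replicate 3 the lowest of both. The log2 change was -0.55 ± 0.34, with a limma adjusted p of 0.466, and of 0.0404 with the block. A second probe set, shared by Cyp12d1-d and its near-identical copy Cyp12d1-p, averaged 118 ± 27.8 in deletion heads and 179 ± 69.8 in wild-type heads, a log2 change of -0.54 with a limma adjusted p of 0.419, and of 0.0535 with the block. The copies cannot be told apart here.

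The remaining CYP12 changes were small. Cyp12a4, whose overexpression gives resistance to lufenuron, averaged 415 ± 37.6 in deletion heads and 465 ± 56.0 in wild-type heads, a log2 change of -0.16 ± 0.10 with a limma adjusted p of 0.450. Its neighbour Cyp12a5 also had a log2 change of -0.16, with a standard error of 0.24. Cyp12b2 averaged 214 ± 15.1 in deletion heads and 220 ± 12.9 in wild-type heads. The probe sets of Cyp12e1 had log2 changes of -0.01 and -0.02.

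Among the other families, 12 of the 17 tested probe sets had negative changes (median -0.06) and none was called without the block. With it 4 were called, all lower in deletion heads (23.5%, against 7.40% of all tested called either way and 3.98% called lower). An unadjusted limma p under 0.05 was found for 7 of the 17, against 1985 of 11261. Cyp28d1, known for its part in resistance to nicotine, had intensities of 3323, 2900 and 3004 in deletion heads, against 4278, 3423 and 3624 in wild-type heads. The groups did not overlap, and the log2 change was -0.29 ± 0.09, with a limma adjusted p of 0.136, and of 0.0082 with the block. Cyp305a1 had 438, 424 and 450 in deletion heads, against 574, 463 and 524 in wild-type heads, also without overlap, and a log2 change of -0.25 ± 0.08 with a limma adjusted p of 0.156, and of 0.0485 with the block. The blocked value was 0.0840 without both arrays numbered 1.

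Cyp309a1 and Cyp309a2 lie side by side. Cyp309a1 had intensities of 175, 114 and 135 in deletion heads, against 301.6, 186 and 174 in wild-type heads, a log2 change of -0.62 ± 0.22 with a limma adjusted p of 0.207, and of 0.0090 with the block. Cyp309a2 had 290, 226 and 244 in deletion heads, against 408, 305.99 and 277 in wild-type heads, a log2 change of -0.37 ± 0.15 with a limma adjusted p of 0.253, and of 0.0232 with the block. Both overlapped by 1 array at the edge, both had replicate 1 as the highest array of each genotype, and both were lower in the deletion array of every replicate number.

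Hormone and development genes among the other families were not called. Cyp18a1, which inactivates the moulting hormone 20-hydroxyecdysone, had log2 changes of -0.20 and -0.03 on its probe sets, with limma adjusted p of 0.273 and 0.874. Cyp301a1, known for its part in forming the adult cuticle, averaged 21.7 ± 1.44 in deletion heads and 20.9 ± 1.19 in wild-type heads. Cyp308a1, on the X chromosome near Cyp18a1, averaged 36.6 ± 2.95 in deletion heads and 30.0 ± 2.40 in wild-type heads without overlap (log2 change of 0.28 ± 0.10, limma adjusted p of 0.184). Cyp28a5 averaged 1010 ± 29.8 in deletion heads and 1024 ± 26.2 in wild-type heads, and Cyp49a1 averaged 9.43 ± 0.638 in deletion heads and 8.66 ± 1.72 in wild-type heads.

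**Figure D3:**
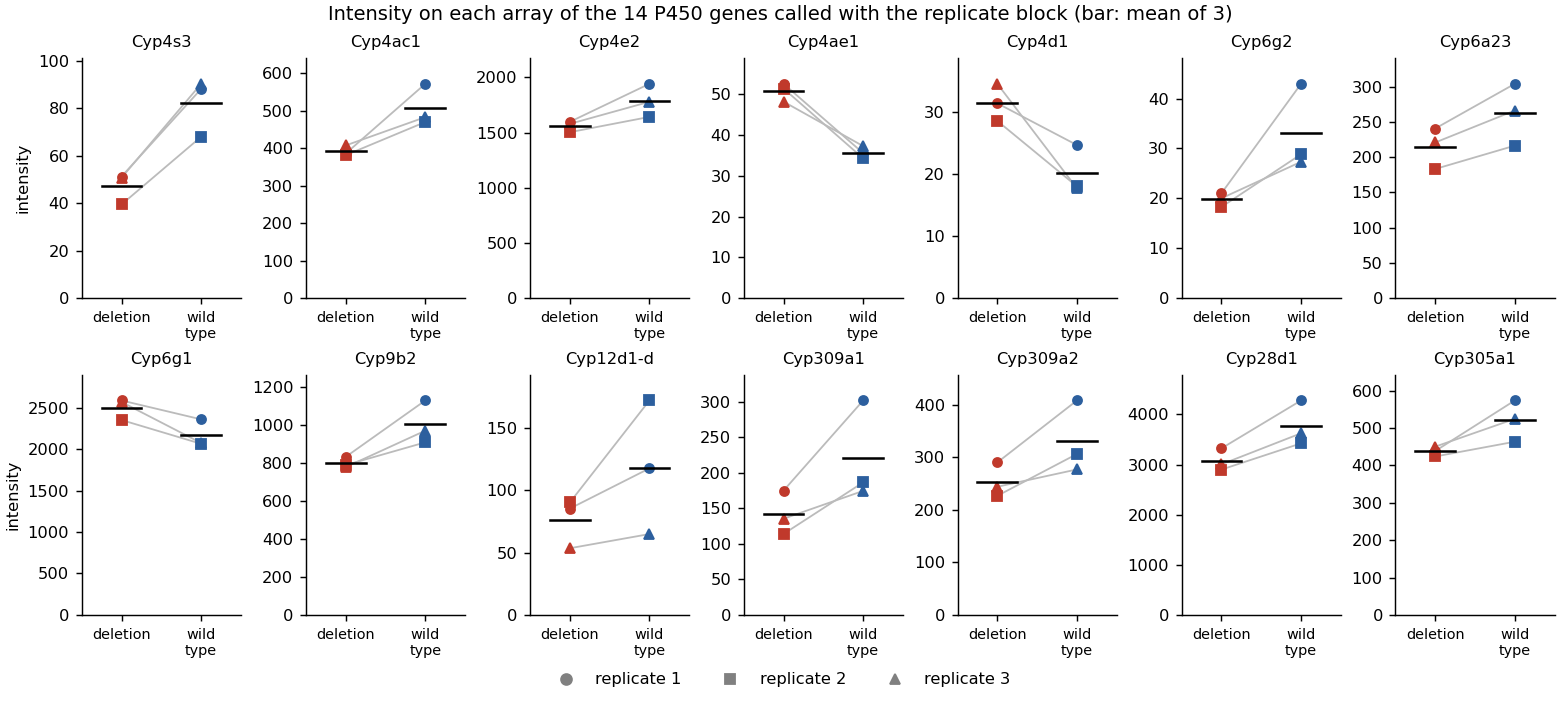
Intensity on each of the 6 arrays for the 14 P450 genes called with the replicate block, 3 deletion arrays (red) and 3 wild-type arrays (blue), with a bar at the mean and a line between arrays of the same replicate number. In Cyp4ae1, Cyp4d1 and Cyp6g1 every line runs downward to the wild-type side, and in the other 11 genes every line runs upward.

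P450 genes often sit in tandem runs that arose by duplication, and neighbours in a run did not all differ in the same direction. With at most 2 other protein-coding genes allowed between members, 13 runs held at least 2 tested genes. Runs with fewer tested genes were left out. Both genes of the Cyp309a1 and Cyp309a2 run and both of the Cyp28d2 and Cyp28d1 run, on chromosome arm 2L, had negative changes (-0.62 and -0.37, and -0.24 and -0.29). In the Cyp4ac run on 2L, Cyp4ac1 and Cyp4ac2 had -0.37 and -0.25 and Cyp4ac3 had 0.05. The longest run, 9 genes on 2R from Cyp6a22 to Cyp317a1, had 7 negative and 2 positive changes, with Cyp6a23 the only one called, and that with the block only.

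Within several runs the signs differed, and 3 pairs were chosen after their values were seen. The log2 ratio of Cyp6g1 to Cyp6g2 averaged 6.91 ± 0.03 in deletion heads and 6.02 ± 0.24 in wild-type heads (SD, n = 3 each), a difference of 0.90. The log2 ratio of Cyp9b1 to Cyp9b2 averaged -2.02 ± 0.10 in deletion heads and -2.54 ± 0.04 in wild-type heads, a difference of 0.52. The log2 ratio of Cyp4d1 to Cyp4d2, in a run on the X chromosome, averaged -3.26 ± 0.13 in deletion heads and -4.003 ± 0.22 in wild-type heads, a difference of 0.75. In all 3 the groups were separate. The pairs were picked from these same values, and other runs of mixed signs were given no ratio, so the separation is a description and no test. Only differences between the genotypes can be read from such a ratio, since probe sets respond unequally.

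**Figure D4:**
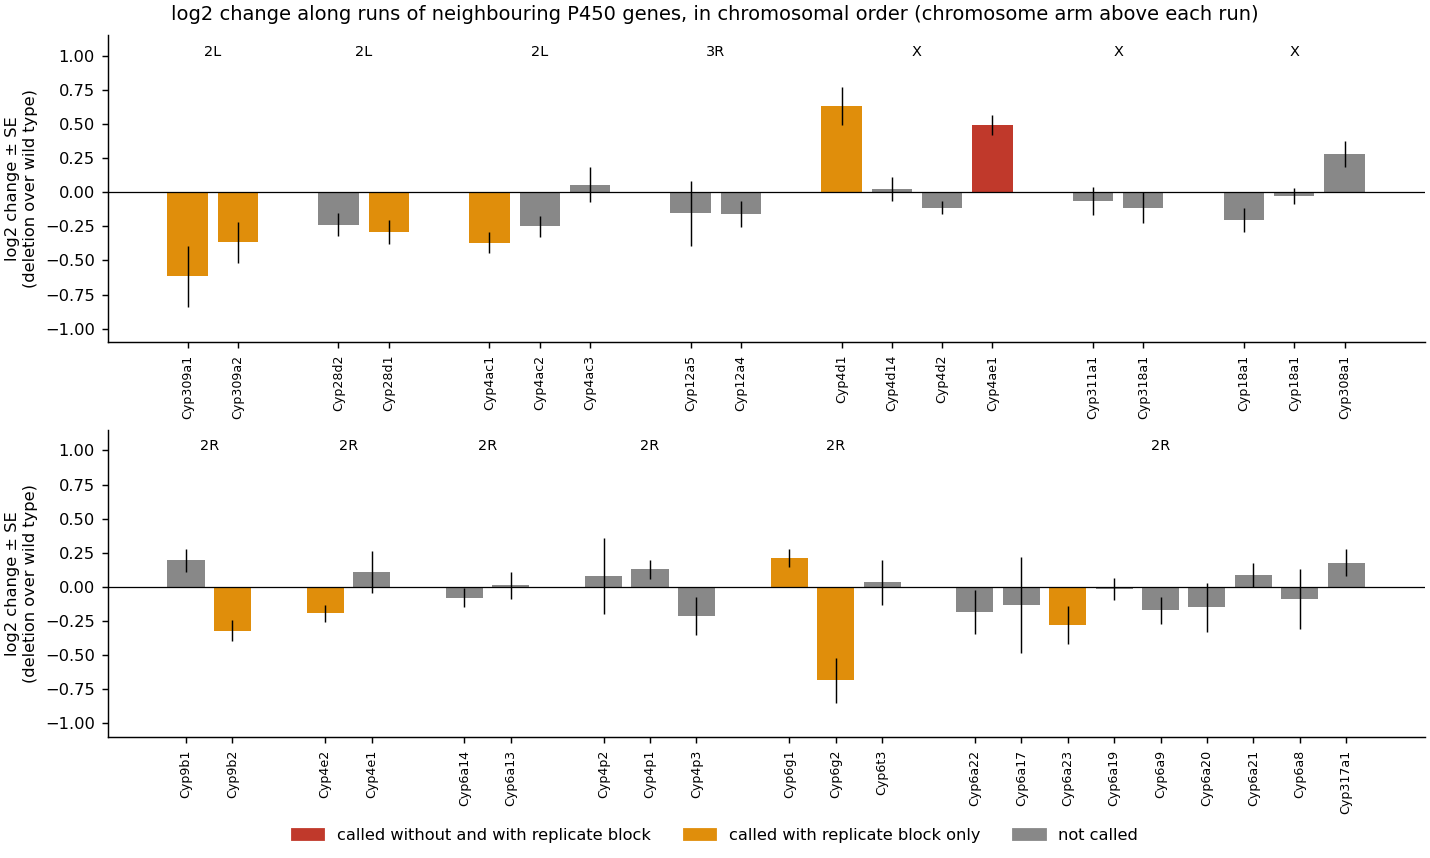
log2 change, deletion over wild type, with a bar of 1 standard error (limma without the block, 3 arrays each), along the 13 runs of neighbouring P450 genes in chromosomal order, with the chromosome arm above each run. Only runs with at least 2 tested genes are shown. Cyp6g1 and Cyp6g2, and Cyp9b1 and Cyp9b2, point in opposite directions, while both Cyp309a and both Cyp28d genes point down.

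By chromosome, a split read after values were seen, the tested P450 probe sets of 2L had the most negative median change, -0.26 over 10 probe sets with 8 negative, against -0.0026 over all tested probe sets of that arm. With the block 4 of these 10 were called (40%), all lower, against 7.16% of all tested probe sets on 2L. Without it none was called, although 6 of the 10 had an unadjusted limma p under 0.05, against 296 of 1675 on 2L. These 4 genes, Cyp309a1, Cyp309a2, Cyp28d1 and Cyp4ac1, lie in only 3 runs. On 2R, 32 P450 probe sets had a median of -0.04. The X chromosome, which carries the deletion, held both genes called without the block, 2 of its 15 P450 probe sets (13.3%), against 4.90% of all tested probe sets on X. These 15 had 7 positive and 8 negative changes. No P450 gene measured was close to Sxl: Cyp4g15 was the nearest, 424 protein-coding genes away. Cyp4ae1 was 445 and Cyp4d1 450 genes away on the other side, the side of cm, and Cyp4s3 was 770 genes away on the side of ct.

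The P450 probe sets varied between arrays of the same genotype, some of them alike in both genotypes. The order of the 3 arrays was the same in both genotypes for 24 of the 71 (33.8%), against 24.2% of all tested. Their median standard deviation within a genotype was 0.12 on the log2 scale, against 0.10 for all tested probe sets, and 21 of the 71 (29.6%) were above the 90th percentile of all. Cyp4e3 had intensities of 9.02, 33.1 and 31.8 in deletion heads, against 10.3, 45.9 and 35.2 in wild-type heads. Replicate 1 was low in both genotypes. Cyp6a17, known for its part in temperature preference, had 122, 178 and 99.5 in deletion heads, against 123, 249 and 92.7 in wild-type heads, with replicate 2 the highest of both. Cyp12a5 had 96.4, 61.5 and 102 in deletion heads, against 116, 68.6 and 106 in wild-type heads, and Cyp6a2 had 339, 225 and 375 in deletion heads, against 320, 209 and 314.4 in wild-type heads. In Cyp12a5 and Cyp6a2 replicate 2 was the lowest of both, but the order of the other arrays differed. Cyp4p2, also of large spread, was not alike in the genotypes. It had 21.3, 21.8 and 29.5 in deletion heads, against 29.3, 13.6 and 28.7 in wild-type heads.

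The likeness of deletion and wild-type arrays of equal number rested in part on the P450 probe sets of largest spread, and in replicate 3 largely so. Over the 71 P450 probe sets, departures from the mean of each genotype correlated at 0.824, 0.776 and 0.728 for replicates 1, 2 and 3 (Spearman's rho of 0.642, 0.623 and 0.421), and over all 11261 tested probe sets at 0.216, 0.248 and 0.114 (rho of 0.354, 0.207 and 0.169). Without the 10 P450 probe sets of largest spread, the correlations were 0.649, 0.445 and 0.254 (rho of 0.639, 0.427 and 0.123). In replicate 3 the rho of these 61 probe sets was below that of all tested probe sets, and 50.8% of them had the same sign in both genotypes, against 56.0% of all. Among the 4064 tested probe sets with a spread at or above the P450 median they were 0.210, 0.281 and 0.114 (rho of 0.376, 0.281 and 0.203). These correlations run across probe sets, which share arrays and are not independent, and they describe the 6 arrays. Deviations within a genotype sum to 0, so the 3 values are not separate pieces of evidence. Whether flies, RNA preparations or array processing were shared by arrays of a number was not tested.

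**Figure D5:**
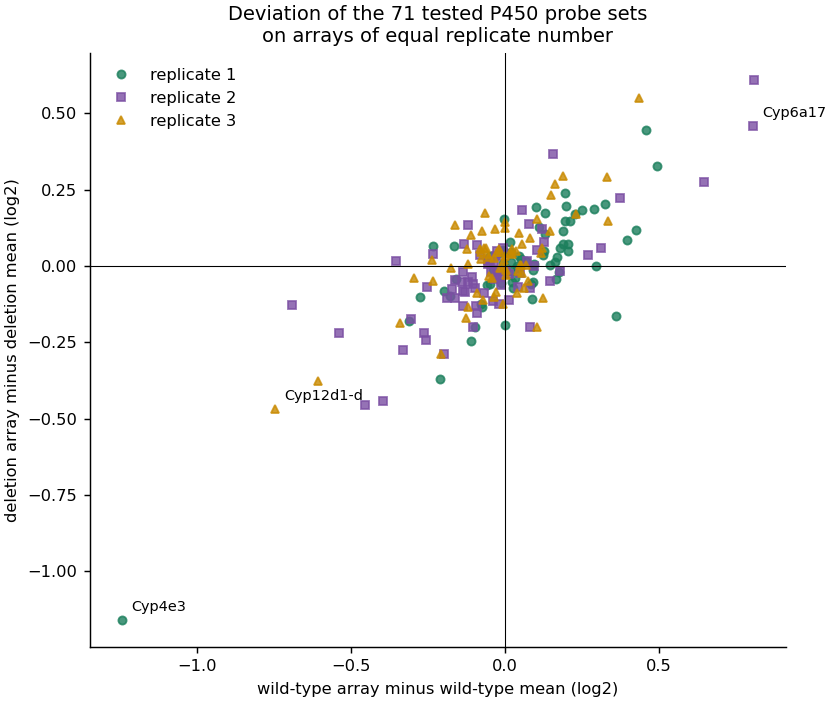
Deviation of each of the 71 tested P450 probe sets from its genotype mean (log2) on the wild-type array (horizontal axis) and on the deletion array of the same replicate number (vertical axis), 1 point for each probe set and number. Points of all 3 numbers run from lower left to upper right, with Cyp4e3 in replicate 1 lowest on both axes.

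Few of the measured partner genes of the P450s were called, as on the array as a whole. Shares over all tested probe sets were 2.60% called without the block and 7.40% with it. On the whole array 1985 of 11261 tested probe sets had an unadjusted limma p under 0.05, and the groups did not overlap for 24.0%. Among electron donors, 5 of 7 listed genes were measured, none was called by limma without the block, and 2 had an unadjusted p under 0.05. The reductase genes Cpr and dare were not measured, so nothing can be said of them. Cyt-b5-r, a cytochrome b5-related gene, had intensities of 2850, 2466 and 2507 in deletion heads, against 3312, 3140 and 2869 in wild-type heads, without overlap (log2 change of -0.25 ± 0.07, limma adjusted p of 0.118, or 0.0174 with the block). Cytochrome b5 itself, Cyt-b5, averaged 1792 ± 57.4 in deletion heads and 1778 ± 55.5 in wild-type heads. Of 9 listed genes of haem synthesis and breakdown 7 were measured, all of them of synthesis. The breakdown gene Ho was not measured. None of the 7 was called in either limma fit, and 2 had an unadjusted p under 0.05 without the block. Of these 7, 5 had negative changes, and Pbgs and Coprox had positive ones (0.19 and 0.08). The summed intensity of all 7 ran from 1835 to 1911 in deletion heads and from 1946 to 2007 in wild-type heads, without overlap. It was mostly that of Alas and Urod. Alas, the first enzyme of haem synthesis, averaged 990 ± 46.2 in deletion heads and 1051 ± 42.6 in wild-type heads, with overlap.

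Among 12 measured regulators of P450 and hormone-response genes none was called by limma without the block. Of these 12, 1 had an unadjusted limma p under 0.05, against 1985 of 11261 of all tested. The nuclear receptor gene Hr38 had intensities of 22.0, 26.5 and 41.8 in deletion heads, against 41.7, 84.4 and 69.2 in wild-type heads, overlapping by the edge values (log2 change of -1.08 ± 0.29, limma adjusted p of 0.106, or 0.0136 with the block). The xenobiotic regulators Hr96, cnc and Keap1 had log2 changes of -0.05, 0.04 and -0.04. Of the 8 ecdysone synthesis enzymes under other symbols, several of them P450s, 4 passed the filter, none was called and 0 had an unadjusted limma p under 0.05, with sums of intensity from 63.1 to 67.5 in deletion heads and from 63.3 to 66.0 in wild-type heads.

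Some markers of head tissues differed between the genotypes. The lists were chosen with earlier results of these data known. Of all tested probe sets 2.60% were called without the block and 7.40% with it, and the groups did not overlap for 24.0%. Of 9 measured fat body markers, 7 were tested and 3 fell in deletion heads: Obp99b (log2 change of -0.91), fit (-0.62) and tobi (-0.92), with limma adjusted p of 0.0446, 0.0448 and 0.0313. With single arrays left out in turn, all 3 kept their direction in 6 of 6 fits, and limma called Obp99b and tobi in 2 of 6 each and fit in 0 of 6. Of the other 4 tested, Lsp2, apolpp and Lsd-1 had negative changes and Yp3 a positive one, with 93.6 ± 4.28 in deletion heads and 69.3 ± 14.6 in wild-type heads, without overlap (log2 change of 0.45, limma adjusted p of 0.142). With the block 5 of the 7 were lower, Lsp2 and Lsd-1 among them, and Yp3 was not called. The summed intensity of the list ran from 16468 to 18769 in deletion heads and from 22217 to 26477 in wild-type heads, without overlap. The fat body is a main site of P450 expression in the fly, and the part of these markers in the lower P450 signals was not tested. Of 5 hydrocarbon genes 4 were tested and Desat1 fell (-0.32, limma adjusted p of 0.0334, called in 1 of 6 fits with an array left out). Cyp4g1, of the same list, was counted with the P450s and had a positive change (0.31). The changes of bond, Desat2 and FarO were -0.09, -0.0007 and 0.14. The summed intensity of the list, from 2211 to 2414 in deletion heads and from 2738 to 3024 in wild-type heads, was mostly that of Desat1, and bond, Desat2 and FarO were not called.

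The other marker lists differed among themselves in direction. Over the array, the unadjusted limma p was under 0.05 for 1985 of 11261 tested probe sets. All 5 measured photoreceptor markers had positive changes, inaD rose (0.53, limma adjusted p of 0.0251, called in 2 of 6 fits with an array left out), 2 of the 5 were called with the block, and sums ran from 26313 to 27174 in deletion heads and from 20584 to 23981 in wild-type heads. Sums of 4 antennal markers ran from 13073 to 13287 in deletion heads and from 12530 to 12706 in wild-type heads, with no limma call without the block and an unadjusted p under 0.05 for 2. With the block lush was higher (limma adjusted p of 0.0394). Sums overlapped for 3 neuronal markers (893 to 1013 in deletion heads, 772 to 942 in wild-type heads), 4 glial markers (6882 to 7125 in deletion heads, 6891 to 7534 in wild-type heads) and 3 muscle markers (1560 to 1771 in deletion heads, 1407 to 1682 in wild-type heads). No limma call was made in these 3 lists without the block, and an unadjusted p under 0.05 was found for 1 neuronal, 1 glial and 0 muscle markers. With the block the neuronal nSyb was higher (limma adjusted p of 0.0433) and the glial nrv2 lower (0.0377). Of 5 gut and Malpighian tubule markers only Irk3 and betaTry passed the filter, with none called by limma and 1 with an unadjusted p under 0.05. Sums ran from 178 to 185 in deletion heads and from 196 to 227 in wild-type heads, lower without overlap as in the fat body list, and were mostly those of Irk3. The part of these tissues in the P450 values was not tested either.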

How the data were processed

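For each of 6 arrays the authors deposited a linear intensity of every probe set. Biotin-labelled cRNA was prepared by the array maker's manual, per the labels' protocols. Background correction, summarisation and normalization are not given in the sources used here. Array medians were nearly equal, so no further normalization was applied. Values were analysed as log2(intensity + 1) with limma 3.58.1 in R 4.3.3, and summaries and figures were made with Python. The 183 controls among the 18952 probe sets were dropped, and the 11261 probe sets at or above the 40th percentile of mean log2 value (an intensity of 8.35) were tested. The fit was lmFit with genotype as the only term, then eBayes with an intensity trend, two-sided, with Benjamini-Hochberg adjustment over all tested probe sets and a threshold of 0.05. Fold changes are on the log2(intensity + 1) scale, deletion over wild type, and understate changes of low signals. The lowest intensity was 3.52 and no background was measured. Arrays have no read depth, and precision is limited by their number, with a median standard error of 0.08 for a log2 change.

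Gene names came from the platform annotation, updated through RefSeq. No source used here gives the array's build, so gene order and distance (in protein-coding genes) come from the RefSeq table and no coordinates are given. Partner and marker genes were represented by their brightest probe set.

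Arrays of equal number correlated in their deviations from the genotype means at 0.216, 0.248 and 0.114, above the bound of 0.1, and unequal ones from -0.223 to 0.0573. The numbers, which the labels give, were therefore taken to pair the arrays, and the report adds the blocked fit where it changes a result. The limma p-values set the genotype difference against the spread between these arrays within a genotype. In the blocked fit that spread is what is left after the replicate number. They do not cover flies of other crosses. The fit without the block was tested on simulated data in which the replicate number had no effect. The blocked fit was not tested in this way. Genes named were those called in either fit, in each family group the 3 brightest and the 3 of smallest p, and a list chosen for known roles. Neighbouring genes, genes of large spread and the rest were picked once values had been seen. The members and lists were chosen with earlier results of these data known.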

Additional observations from a re-analysis of the deposited data

How the results depend on the processing

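The 2 P450 calls became 1 without the intensity trend, 6 with array weights, 6 at a threshold of 0.1, 14 with the replicate block and 12 with the replicate block without both arrays numbered 1, which was added after seeing the data. Leaving out single arrays gave 0 to 6: none was called by limma without deletion replicate 1, 2 or 3, where 19, 10 and 15 P450 probe sets had an unadjusted p under 0.05, and 6 were called without wild-type replicate 1. Over all tested probe sets the 293 calls became 128 without the trend, 572 with array weights, 683 at a threshold of 0.1, 833 with the block and 894 with the block without the arrays numbered 1, and 54 to 432 with single arrays left out. Wild-type replicate 1 had the lowest array weight, 0.395, against 0.903 to 1.61 for the others. The count was 2 or 3 under the other filters, pseudocount 16, quantile normalization, median centring, robust eBayes and 1 probe set per gene. The median P450 change stayed between -0.06 and -0.01 throughout. The P450 genes named that changed sign under an alternative were all uncalled: Cyp12e1 (0.0039) and Cyp6a8 (0.0457) with array weights and Cyp9f2 (0.0121) with quantile normalization. With single arrays left out, the log2 change ran from -0.10 to 0.0065 for Cyp12b2, -0.0667 to 0.0431 for Cyp12e1, -0.38 to 0.0716 for Cyp12a5, -0.0125 to 0.14 for Cyp4g15, -0.0791 to 0.0081 for Cyp6w1, -0.0523 to 0.37 for Cyp6a2, -0.26 to 0.0353 for Cyp6a20, -0.36 to 0.0769 for Cyp6a8, -0.0369 to 0.0287 for Cyp9f2, -0.14 to 0.0453 for Cyp9c1, -0.0432 to 0.000597 for Cyp28a5 and -0.0550 to 0.000204 for 1 probe set of Cyp18a1. The cause of these changes was not tested.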
